A study of Mus musculus with 32 samples.

Results

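The 7 genes described here encode the isocitrate dehydrogenases Idh1, Idh2, Idh3a, Idh3b and Idh3g and the enzymes Ogdh and D2hgdh, which use or make 2-oxoglutarate. They are 7 of the 21829 mouse genes in the table. They were chosen by name as an enzyme family, by someone who had already seen how these libraries changed with azacitidine. No threshold on a measured value belongs to the choice. Their differences between the groups are therefore given as descriptions, and the adjusted p-values beside them come from the fit across all genes and are no independent support.

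Isocitrate dehydrogenases oxidise isocitrate to 2-oxoglutarate. IDH1 in the cytosol and peroxisome and IDH2 in the mitochondrion use NADP and yield NADPH, and both can run in reverse. The NAD-dependent enzyme of the tricarboxylic acid (TCA) cycle is built from a catalytic alpha subunit (Idh3a) with beta (Idh3b) and gamma (Idh3g) subunits. Ogdh is the first enzyme of the complex that turns 2-oxoglutarate into succinyl-CoA, and D2hgdh oxidises D-2-hydroxyglutarate back to 2-oxoglutarate. Mutant IDH1 and IDH2 of myeloid neoplasms make D-2-hydroxyglutarate, which inhibits 2-oxoglutarate-dependent dioxygenases such as TET2. Nothing in the labels says whether any of these genes is mutated in the cells studied.

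EL08-1D2 is a mouse stromal cell line derived from embryonic liver that is used to support blood progenitors in culture. The series holds 16 libraries of this line with azacitidine and 16 without, and n = 16 per group holds for every mean below unless another n is given. Azacitidine is a cytidine analogue that lowers DNA methylation, and neither its dose nor the length of treatment is given in the labels. The line is a single cell line, the labels name no separate cultures, and the p-values may therefore measure technical spread only.

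Libraries held 1226861 to 5039721 unique molecular identifiers (UMIs) with azacitidine and 818619 to 3210801 without it. A UMI marks a single cDNA molecule. The summed level of 8 stromal markers (among them Col1a1, Col3a1, Pdgfra and Vim) had a median of 7307 counts of UMIs scaled to library size (CPM, counts per 1000000 UMIs) with azacitidine, with a range of 5719 to 9519, and of 9855 CPM without it, with a range of 8450 to 11251. Most of this sum was Col3a1, Col1a2, Vim and Col1a1, and its collagen genes were lower with the drug. Thy1, another of the 8, had 26 UMIs in all libraries with azacitidine and 0 in all libraries without it. Eng averaged 6.66 CPM with azacitidine and 5.74 CPM without it. Of 7 blood markers 5 were in the table, with a summed range of 10.7 to 26.3 CPM with azacitidine and 4.17 to 12.8 CPM without it. Most of that was Cd68, a lysosomal protein gene of macrophages, at 16.0 ± 5.1 CPM with azacitidine and 8.12 ± 2.79 CPM without it (SD). In the fit across all genes Cd68 was called higher with azacitidine (log2 fold change 0.99, SE 0.16, edgeR adjusted p = 3.0e-05). Ptprc, the defining leukocyte gene, had 4 UMIs in all libraries with azacitidine and 1 in all libraries without it. Of 7 epithelial, endothelial and liver markers 5 were in the table, and their sum stayed at or below 2.97 CPM with azacitidine and 1.10 CPM without it. The part of these cell types in the results was not tested. In these bulk samples fewer cells with a transcript and less of it per cell cannot be told apart.

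Libraries differed in ways that the treatment label does not explain. Numbers 1, 2 and 4 with azacitidine and 1 and 2 without it were taken as standing apart from earlier results of these data. The median correlation with their own group was 0.937 to 0.944 for the 3 with azacitidine, where the others lay between 0.966 and 0.974. It was 0.951 for number 1 without azacitidine and 0.963 for number 2, where the others lay between 0.956 and 0.974, so that this measure does not set number 2 apart. Libraries also resembled each other by runs of 4 consecutive replicate numbers (1 to 4, 5 to 8, 9 to 12 and 13 to 16), for which the labels give no reason. Values without the 5 libraries, or within each run, stand beside the results they touch.

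Windows around the start sites of the genes that fell with the drug (Idh1, Idh2 and D2hgdh), and of Idh3g as a subunit of the NAD form, are shown because azacitidine acts on methylation at CpG sites. Each runs from 250 bases before to 50 bases after the start, 5′ to 3′, from RefSeq on GRCm38.p6 (the mm10 build), with every CpG in capitals. The windows are chr1:65186430-65186729 (minus strand), chr7:80115301-80115600 (minus), chr1:93824990-93825289 (plus) and chrX:73786848-73787147 (minus), in the order printed.
Idh1: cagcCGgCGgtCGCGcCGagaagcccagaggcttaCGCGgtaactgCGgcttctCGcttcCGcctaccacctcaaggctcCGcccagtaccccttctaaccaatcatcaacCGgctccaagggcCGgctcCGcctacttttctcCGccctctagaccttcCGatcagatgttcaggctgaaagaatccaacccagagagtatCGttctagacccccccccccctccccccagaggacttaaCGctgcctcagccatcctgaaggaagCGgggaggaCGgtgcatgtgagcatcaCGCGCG
Idh2: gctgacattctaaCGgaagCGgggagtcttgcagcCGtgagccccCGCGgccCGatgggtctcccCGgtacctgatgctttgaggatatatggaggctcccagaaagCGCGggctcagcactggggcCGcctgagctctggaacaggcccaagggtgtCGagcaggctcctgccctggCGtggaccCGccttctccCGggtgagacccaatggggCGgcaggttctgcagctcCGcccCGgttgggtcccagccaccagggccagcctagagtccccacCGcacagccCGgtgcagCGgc
D2hgdh: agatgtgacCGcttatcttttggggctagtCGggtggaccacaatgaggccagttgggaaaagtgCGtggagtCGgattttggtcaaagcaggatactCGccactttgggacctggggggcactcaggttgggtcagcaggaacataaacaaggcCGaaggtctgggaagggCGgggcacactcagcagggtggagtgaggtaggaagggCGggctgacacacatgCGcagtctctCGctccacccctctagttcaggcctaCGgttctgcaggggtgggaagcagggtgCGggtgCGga
Idh3g: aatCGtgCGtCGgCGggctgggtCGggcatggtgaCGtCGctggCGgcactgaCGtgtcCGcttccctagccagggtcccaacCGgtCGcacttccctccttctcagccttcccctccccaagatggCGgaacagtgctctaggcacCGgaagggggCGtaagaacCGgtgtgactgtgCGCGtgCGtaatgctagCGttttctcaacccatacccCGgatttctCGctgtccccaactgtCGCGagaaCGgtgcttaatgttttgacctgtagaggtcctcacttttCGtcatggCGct

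Sequences of 6 of the 7 genes were found, and Idh3a is named only. The windows held 23 CpGs for Idh1, 20 for Idh2 and 13 for D2hgdh, against 27 for Idh3g, 18 for Idh3b and 26 for Ogdh, where the median of all 32851 windows was 7. Every member's window was thus above that median, and D2hgdh, which fell, had the fewest CpGs of the 6 and Idh3g, which did not pass the test, the most. For genes with several start sites the window nearest the GENCODE start was taken, and the D2hgdh window lies 331 bases from that start. Motifs were searched on both strands. CCAAT, found in 37.4% of all windows, was in those of Idh1, Idh2, Idh3b and Ogdh. GGGCGG, found in 35.7%, was in those of Idh1, Idh2, Ogdh and D2hgdh, and it overlaps a CpG by its own letters. CACGTG (7.15% of all windows), TATAAA (13.6%) and 1 word of 10 letters each for the factors NRF1 (0.971%) and NRF2 (0.155%) matched no member's window.

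The NADP-dependent enzymes fell with azacitidine, and the NAD-dependent enzyme did not pass the test. Idh1 was lower by about 21% and Idh2 by about 20%, D2hgdh was lower by about 29%, and Idh3a, Idh3b, Idh3g and Ogdh moved by less than 5% of their level. In the fit across 9344 genes (edgeR with the quasi-likelihood test, Benjamini-Hochberg adjustment, threshold 0.05) 3 of the 7 members were called, all lower. Over all genes 5.65% were called, 3.65% higher and 2.00% lower, and nothing is read from the members' count. The groups overlapped for each of the 7, while 0.289% of all genes had groups that did not.

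Idh1 (ENSMUSG00000025950, chromosome 1, 65158616 to 65186500, minus strand) encodes the cytosolic and peroxisomal NADP enzyme. Its lowest, median and highest levels were 209, 314 and 355 CPM in libraries with azacitidine, against 290, 360 and 465 CPM in libraries without it. Of the 16 libraries with azacitidine 7 lay below the lowest without it and all 16 below the median without it, and 9 libraries without azacitidine lay above the highest with it. The means were 294 ± 53 CPM with azacitidine and 370.0 ± 50.9 CPM without it (SD), a log2 fold change of -0.33 (SE 0.08, edgeR adjusted p = 0.0059). The libraries numbered 5 to 8 with azacitidine were the lowest of all, between 209 and 230 CPM.

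Idh2 (ENSMUSG00000030541, chromosome 7, 80094846 to 80115392, minus strand) encodes the mitochondrial NADP enzyme. It overlaps the annotated transcript Gm45203 on the same strand. Libraries with azacitidine ran from 198 to 293 CPM with a median of 241, and libraries without it from 246 to 352 CPM with a median of 308. All 16 libraries with azacitidine lay below the median without it, 9 of them below the lowest without it. Idh2 averaged 244 ± 29 CPM with azacitidine and 304 ± 34 CPM without it, a log2 fold change of -0.32 (SE 0.06, edgeR adjusted p = 0.00033). It ranked 141st of the 9344 genes by p, where Idh1 ranked 275th and D2hgdh 342nd.

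D2hgdh (ENSMUSG00000073609, chromosome 1, 93824909 to 93852348, plus strand), the mitochondrial dehydrogenase that clears D-2-hydroxyglutarate, was the least counted member. Its libraries held 5 to 36 UMIs with azacitidine and 6 to 32 without it, so that counting error is large in any single library. The lowest, median and highest levels were 3.91, 6.95 and 11.7 CPM with azacitidine, against 5.22, 9.99 and 13.8 CPM without it. In 15 of the 16 libraries with azacitidine the level was below the median without it. The log2 fold change was -0.50 (SE 0.13, edgeR adjusted p = 0.016), the largest of the 7 and the one with the widest error.

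The 3 subunits of the NAD form showed no call. Idh3a (ENSMUSG00000032279, chromosome 9, 54586334 to 54604661, plus strand), the catalytic subunit, had lowest, median and highest levels of 60.7, 77.4 and 93.5 CPM with azacitidine and of 48.5, 75.3 and 84.6 CPM without it. Idh3b (ENSMUSG00000027406, chromosome 2, 130279309 to 130284547, minus strand), the beta subunit, had 153, 181 and 211 CPM with azacitidine and 141, 177 and 221 CPM without it. Its exons share 5 of 3422 bases with those of Nop56 on the other strand. Idh3g (ENSMUSG00000002010, chromosome X, 73778963 to 73786897, minus strand), the gamma subunit, had 118, 131 and 225 CPM with azacitidine and 117, 142 and 207 CPM without it. The ranges of the groups overlapped for all 3 subunits, and that of Idh3a lay somewhat higher with azacitidine. Their log2 fold changes were 0.06 for Idh3a (95% interval -0.07 to 0.20), 0.04 for Idh3b (-0.07 to 0.15) and 0.01 for Idh3g (-0.17 to 0.20), with edgeR adjusted p = 0.72, 0.78 and 0.98. The log2 fold change of Idh2, -0.32, lies outside each of these intervals.

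Ogdh (ENSMUSG00000020456, chromosome 11, 6291633 to 6356642, plus strand), which consumes 2-oxoglutarate, had lowest, median and highest levels of 69.1, 88.1 and 124 CPM with azacitidine, against 66.3, 82.5 and 119 CPM without it. The groups overlapped over nearly their whole range. Its log2 fold change was 0.04 with a 95% interval of -0.12 to 0.20 (edgeR adjusted p = 0.88).

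**Figure D1:**
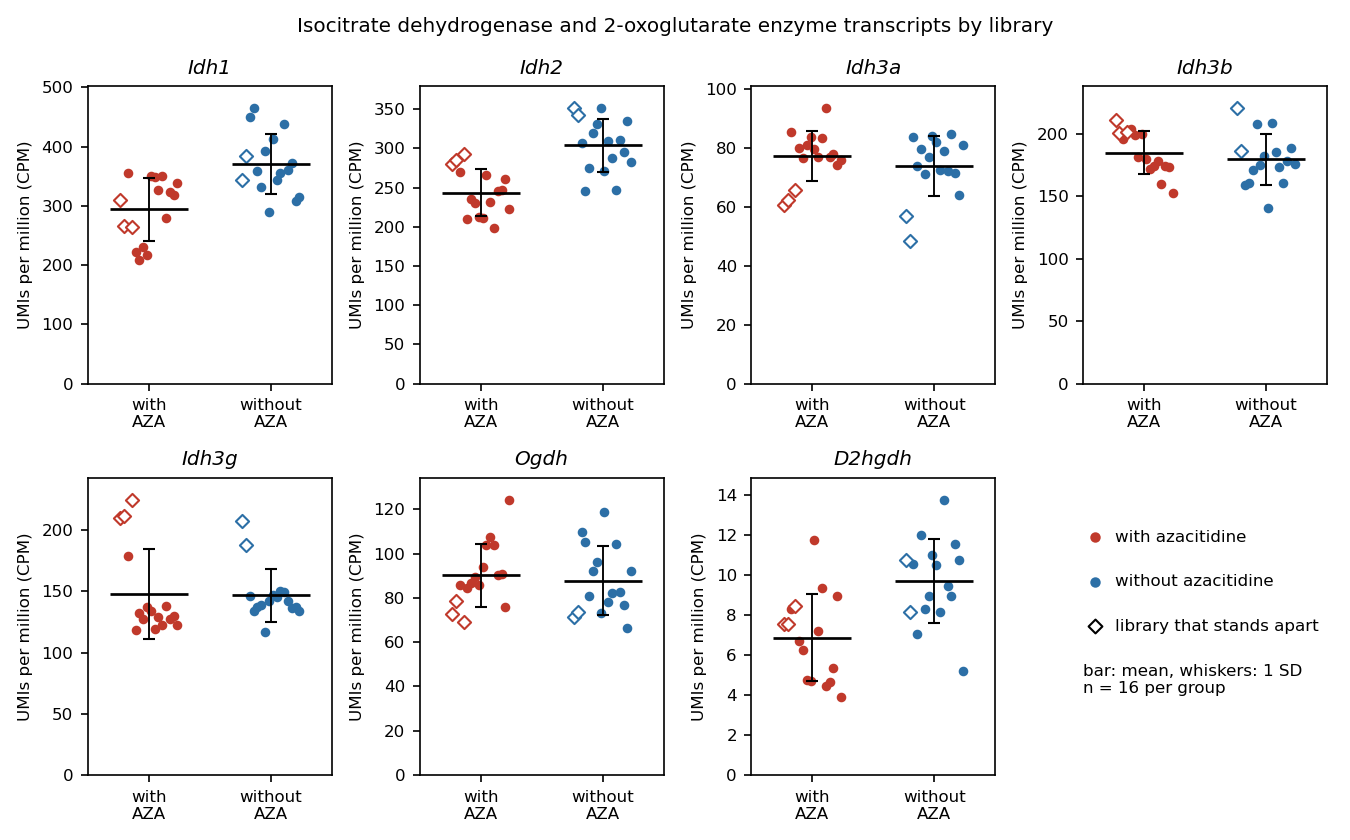
Levels of the 7 genes in CPM (linear axes from 0) in the 16 libraries with azacitidine (red, left) and the 16 without it (blue, right). Points are libraries in order of replicate number, open diamonds the 5 libraries that stand apart, bars the mean and whiskers 1 SD. Idh1, Idh2 and D2hgdh sit lower with azacitidine with overlap, and the diamonds lead the Idh3g panel and lie at the bottom of the Idh3a panel in both groups.

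The 5 libraries that stand apart differed from the others in several members. Idh3g lay at 210 to 225 CPM in the 3 of them with azacitidine and at 188 to 207 CPM in the 2 without it, against a median of 129 CPM in the 13 other libraries with azacitidine and of 140 CPM in the 14 others without it. Idh3a was low in the same libraries, at 60.7 to 65.6 CPM with azacitidine, where the others started at 74.2, and at 48.5 to 56.8 CPM without it, where the others started at 63.9. Idh1 in these libraries, at 264 to 310 CPM with azacitidine and 344 to 384 CPM without it, fell within the range of the others. Idh2 was high in them, at 279.8 to 293.0 CPM with azacitidine, where the highest of the others was 270.0, and at 343 to 352 CPM without it, where the highest of the others was 351. Without the 5 libraries the log2 fold changes were -0.32 for Idh1, -0.35 for Idh2 and -0.59 for D2hgdh, each still called (edgeR adjusted p = 0.030, 4.2e-05 and 0.017). That of Idh3g turned to -0.08 and was not called (edgeR adjusted p = 0.48).

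A ratio between genes of a library does not depend on how that library is scaled, so the forms were set against each other within each library. Such a ratio can still follow depth, which is taken up below. UMIs of Idh1 and Idh2 together, over those of the 3 NAD subunits together, stood at a lowest, median and highest of 1.02, 1.38 and 1.67 with azacitidine, against 1.43, 1.69 and 1.97 without it. All 16 libraries with azacitidine lay below the median without it and 11 below the lowest without it, although the groups overlapped. The mean log2 ratio was 0.39 ± 0.22 with azacitidine and 0.75 ± 0.14 without it (SD), a difference of -0.36 (SE 0.07), or a ratio 0.778 times that without the drug. No p is given for it, since the members were chosen with results known.

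Each NADP form was lower against the NAD form over all libraries, and the runs of 4 replicate numbers differed. Idh2 over the NAD form had a median of 0.593 with azacitidine and 0.749 without it, a mean log2 difference of -0.35 (SE 0.05), and lay below the lowest value without azacitidine in 11 of 16 libraries. Idh1 over the NAD form had a median of 0.759 with azacitidine and 0.917 without it, a difference of -0.37 (SE 0.11), with 7 of 16 libraries below the lowest without. In numbers 1 to 4, 5 to 8, 9 to 12 and 13 to 16 the differences were -0.66, -0.67, -0.11 and -0.04 for Idh1 over the NAD form and -0.34, -0.56, -0.24 and -0.26 for Idh2 over it. In the last 2 of these runs Idh1 thus differed less than Idh2. Idh1 over Idh2, with medians of 1.18 with azacitidine and 1.17 without it, differed by -0.02 (SE 0.11) on the log2 scale, a mean of runs of opposite sign (-0.33, -0.12, 0.14 and 0.22).

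Against Ogdh, the user of 2-oxoglutarate, the NADP forms were also lower with azacitidine. Idh1 and Idh2 together held a median of 5.86 UMIs per Ogdh UMI with azacitidine and 7.84 without it, a log2 difference of -0.38 (SE 0.09), with 14 of 16 libraries below the median without. D2hgdh over Ogdh had a median of 0.0756 with azacitidine and 0.106 without it (log2 difference -0.57, SE 0.19), and by run the differences were 0.04, -0.88, -0.53 and -0.93, so that numbers 1 to 4 showed no fall. The NAD form over Ogdh, with medians of 4.53 with azacitidine and 4.74 without it, differed by -0.01 (SE 0.12), with 0.42, 0.01, -0.17 and -0.31 in the 4 runs, which changed sign. Within the NAD form, Idh3g over Idh3b differed by -0.06 (SE 0.08) and Idh3a over the other subunits by 0.05 (SE 0.12).

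**Figure D2:**
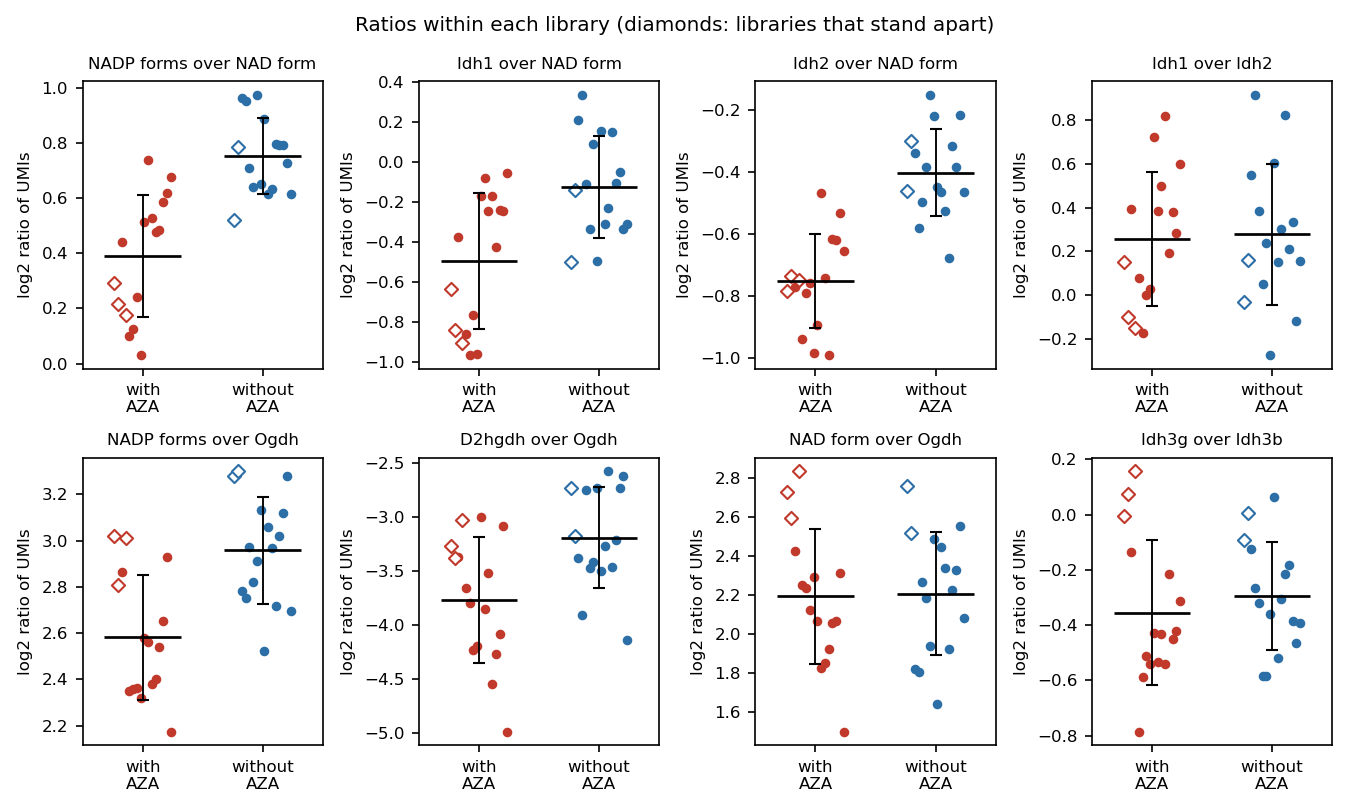
Log2 ratios of UMIs within each library, with azacitidine (red, left) and without it (blue, right). Points are libraries, open diamonds the 5 that stand apart, bars the mean and whiskers 1 SD. The NADP forms over the NAD form average 0.39 with azacitidine and 0.75 without it, and Idh1 over Idh2 and the NAD form over Ogdh cover the same range in both groups.

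Divided by the length of the main coding transcript, the levels took the same order in both groups. This scale treats a UMI as if longer transcripts gave more of them. A UMI marks a single cDNA molecule, so the scale is no ranking of transcript numbers. By mean CPM the order in both groups was Idh1, Idh2, Idh3b, Idh3g, Ogdh, Idh3a and D2hgdh. There Idh1 stood above Idh2 (294 and 244 CPM with azacitidine) and Ogdh above Idh3a (90.2 and 77.1 CPM), which division by length reversed. With azacitidine, Idh2 stood at 140 ± 17 CPM per kb, Idh1 at 128 ± 23, Idh3b at 114 ± 11, Idh3g at 111 ± 27, Idh3a at 32.1 ± 3.5, Ogdh at 21.9 ± 3.4 and D2hgdh at 2.12 ± 0.67. Without azacitidine the order of the 7 was the same, with Idh2 at 174 ± 20 CPM per kb, Idh1 at 161 ± 22, Idh3b at 111 ± 13, Idh3g at 110.4 ± 16.2, Idh3a at 30.7 ± 4.2, Ogdh at 21.3 ± 3.7 and D2hgdh at 3.00 ± 0.65. Neighbours Idh2 and Idh1, and Idh3b and Idh3g, lay within 1 SD of each other in both groups. With azacitidine the mean of Idh3b lay within 1 SD of that of Idh1, but the mean of Idh1 lay more than 1 SD of Idh3b away. Without azacitidine each lay outside 1 SD of the other.

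The size of the differences was not the same in every run of 4 replicate numbers. Idh1 differed by -0.46, -0.64, -0.16 and -0.11 on the log2 scale in numbers 1 to 4, 5 to 8, 9 to 12 and 13 to 16. Idh2 differed by -0.13, -0.52, -0.30 and -0.33, and D2hgdh by -0.16, -0.80, -0.39 and -0.63. All 3 were lower in each run, and their groups of 4 did not overlap in numbers 5 to 8, nor did those of Idh2 in 13 to 16. The ratio of the NADP forms to the NAD form differed by -0.52, -0.62, -0.17 and -0.14, without overlap in the earlier 2 runs.

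Of the members without a call Idh3g, Ogdh and Idh3b changed sign between runs, and Idh3a did not. Idh3g differed by 0.31, -0.05, -0.23 and -0.08, Ogdh by -0.21, 0.03, 0.11 and 0.25 and Idh3b by 0.17, 0.09, 0.01 and -0.09, while Idh3a lay between 0.03 and 0.12 in all 4. The groups of Idh3g did not overlap in numbers 9 to 12, where it reached at most 133.7 CPM with azacitidine and at least 145.6 CPM without it. A test of whether the effect differed between runs, fitted across all genes, called 3.02% of them and no member (edgeR interaction test, adjusted p = 0.053 for Idh1, 0.10 for Idh3g, 0.41 for Idh2). Unadjusted p was under 0.05 for Idh1 and Idh3g.

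**Figure D3:**
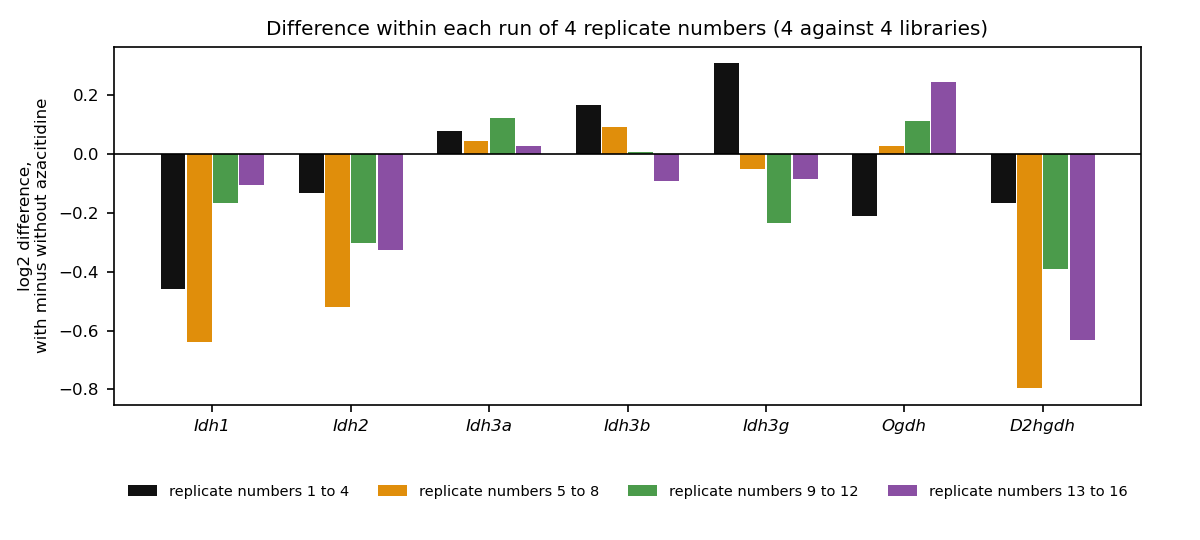
Differences in mean log2 CPM, with minus without azacitidine, within each run of 4 replicate numbers (4 against 4 libraries, one bar per run). Idh1, Idh2 and D2hgdh lie below 0 in each run, at their lowest in numbers 5 to 8, while Idh3g and Ogdh change sign between runs.

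The runs set how firmly the calls stand. Idh1 was not called without numbers 1 to 4, where 2.49% of genes were called lower, or without numbers 5 to 8 (edgeR adjusted p = 0.056 and 0.050, log2 fold change -0.29 and -0.24). D2hgdh was not called without numbers 5 to 8 or 13 to 16 (edgeR adjusted p = 0.20 and 0.073). With the libraries of a run and group summed, 4 sums against 4 and the run as a term, 0.700% of genes were called lower, among them Idh2 (edgeR adjusted p = 0.0089) but neither Idh1 (0.057) nor D2hgdh (0.10). Sums without that term called 0.0244% of genes lower and no member. Leaving out any single library ended none of the 3 calls: the highest edgeR adjusted p was 0.013 for Idh1, 0.00078 for Idh2 and 0.036 for D2hgdh.

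The falls are relative to the other genes of a library. Scaling by ERCC spike-ins, RNA added to each sample, put the median of all tested genes at 0.31 on the log2 scale and called 0.0107% of them lower. On that scale Idh1 stood at -0.03, Idh2 at -0.01 and D2hgdh at -0.25, with no call (edgeR adjusted p = 0.91, 0.95 and 0.40). The SE there was 0.20 for Idh1 and for Idh2, against 0.08 and 0.06 with TMM scaling. It is too wide to tell a fall of the size above from no fall. Idh3a, Idh3b, Idh3g and Ogdh stood at 0.35, 0.33, 0.33 and 0.37, near the median of all genes and without a call. The ratios between members are the same on either scale.

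Levels of several members also moved with depth among libraries of a group. After removal of the group means, the correlation of log2 CPM with log2 total UMIs over the 32 libraries was 0.65 for Idh2, 0.65 for Idh3b, 0.68 for Idh3g, -0.70 for Ogdh, -0.63 for Idh3a and -0.33 for Idh1. For D2hgdh, with a mean below 20 CPM, it was 0.23. The middle 90% of genes with a mean of at least 20 CPM ran from -0.69 to 0.73, and only Ogdh lay outside it, at its lower edge. Median depth was higher with azacitidine, at 1966208.5 UMIs against 1619400.5 without it. Within groups Idh2 was higher in deeper libraries, and the correlations of Idh1 and D2hgdh with depth were weaker. The part of depth in the results was not tested.

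Other enzymes of the TCA cycle had a median change near 0, as the subunits of the NAD form had small ones. Of 14 tested genes 1 was called higher and 0 lower. Over all genes 3.65% were called higher and 2.00% lower, and nothing is read from the count. The median log2 fold change was 0.03, where the median of all 9344 genes was 0.00. The one that rose was Dlst, the second component of the Ogdh complex, at 77.8 ± 5.4 CPM with azacitidine and 67.6 ± 8.0 CPM without it (log2 fold change 0.19, SE 0.05, edgeR adjusted p = 0.025). It was not called without numbers 1 to 4, 5 to 8 or 9 to 12 (edgeR adjusted p = 0.084, 0.078 and 0.22), with spike-in scaling (0.15) or with sums of runs and a run term (0.26). Dld, the third component, had 82.4 ± 12.0 CPM with azacitidine and 74.9 ± 7.9 CPM without it and no call (edgeR adjusted p = 0.31). It was called higher with a run term, without the 5 libraries that stand apart and without numbers 1 to 4 (edgeR adjusted p = 0.047, 0.046 and 0.047). Over all genes those settings called 563, 363 and 346 higher, against 341 in the fit without these changes. Cs, the citrate synthase gene, stood at 312 ± 27 CPM with azacitidine and at 299 ± 27 CPM without it, with no call.

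Another source of cytosolic NADPH went the other way. Me1, the cytosolic NADP-dependent malic enzyme, had lowest, median and highest levels of 11.9, 18.7 and 25.7 CPM with azacitidine, against 10.2, 13.2 and 16.1 CPM without it. It rose by 0.50 on the log2 scale (SE 0.10, edgeR adjusted p = 0.00045), with differences of 0.56, 0.51, 0.29 and 0.56 in the 4 runs, and with spike-in scaling by 0.78 (edgeR adjusted p = 0.020). Of the 9 tested genes in the list of other NADPH sources it was the 1 called, where 3.65% of all genes were called higher. The list's median was 0.06. Pgd and G6pdx of the pentose phosphate pathway had log2 fold changes of 0.09 and 0.07 without a call. Of 6 tested genes of glutathione, thioredoxin and related NADPH-using pathways 0 were called by edgeR, with 2 at an unadjusted p under 0.05. These were Gclm, a subunit of the enzyme that starts glutathione synthesis, and the quinone reductase gene Nqo1 (log2 fold change 0.53, SE 0.22, and 0.29, SE 0.14). DESeq2 and limma-voom also called 0 of them, and Gclm was called with the replicate block, a run term or spike-in scaling (edgeR adjusted p = 0.020, 0.022 and 0.012) and, at 0.05 after rounding, without the 5 libraries that stand apart. Over all genes these settings called 518, 563, 354 and 363 higher.

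Genes of the other routes to 2-oxoglutarate had no call by edgeR, where 5.65% of all genes were called. Of 8 tested transaminase and dehydrogenase genes that make it 0 were called and 0 had an unadjusted p under 0.05, with a median of 0.04, and DESeq2 and limma-voom called 0 as well. Got1 and Got2, the cytosolic and mitochondrial aspartate transaminases, were nearest to a call, at 103 ± 17 and 123 ± 11 CPM with azacitidine and 92.8 ± 16.1 and 118 ± 12 CPM without it. Gpt, an alanine transaminase gene, was below the filter on counts, with 216 UMIs in all libraries with azacitidine and 106 without it. With a filter at a mean of 5 UMIs it was called higher with azacitidine (log2 fold change 0.53, edgeR adjusted p = 0.042). Of 4 other tested genes of hydroxyglutarate metabolism and 2-oxoglutarate oxidation 0 were called by edgeR, DESeq2 or limma-voom, with 0 at an unadjusted p under 0.05. Their members nearest to a call were Adhfe1, a hydroxyacid-oxoacid transhydrogenase gene, with 8.10 ± 2.00 CPM with azacitidine and 7.19 ± 3.30 CPM without it, and Phgdh of serine synthesis, with 267 ± 55 CPM with azacitidine and 248 ± 44 CPM without it. Of 5 tested genes for carriers of citrate and 2-oxoglutarate, for cytosolic aconitase and for ATP citrate lyase, the same 3 tools called 0, with 0 at an unadjusted p under 0.05. Among these Acly had a log2 fold change of -0.09 and Slc25a10 of 0.05.

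Enzymes that consume 2-oxoglutarate as dioxygenases showed 1 increase and 1 decrease in the fit without a run term. Over all genes that fit called 3.65% higher and 2.00% lower, and nothing is read from these counts. With the replicate block, a run term or a correlation within runs P4ha1, a collagen prolyl hydroxylase gene, was also called lower (adjusted p = 0.017 and 0.012 in edgeR and 0.029 in limma-voom). Over all genes these settings called 379, 430 and 401 of 9344 lower, against 187 without any of them. Kdm5b, a histone H3 lysine demethylase gene, was called lower with the first 2 of these (edgeR adjusted p = 0.048 and 0.037), and P4ha2, another collagen prolyl hydroxylase gene, with the run term (0.039). Kdm5c, an X-linked histone H3 lysine demethylase, was the 1 called among 16 tested JmjC genes. It fell to 34.8 ± 5.4 CPM with azacitidine, against 44.6 ± 7.2 CPM without it (log2 fold change -0.36, SE 0.09, edgeR adjusted p = 0.0066). It was not called without numbers 5 to 8 or 13 to 16 (edgeR adjusted p = 0.086 and 0.069) and stood at -0.05 with spike-in scaling (0.83). Of the 16 JmjC genes 12 had a log2 fold change below 0, as had 4651 of all 9344 genes. The list's median of -0.20 compares with 0.00 over all genes, and no test of the list was made. Of 12 tested prolyl, lysyl and asparaginyl hydroxylase genes Plod1, a lysyl hydroxylase of collagen, rose to 212 ± 28 CPM with azacitidine, against 171 ± 15 CPM without it (edgeR adjusted p = 0.00032), and the list's median was 0.01. Of 10 tested dioxygenases of DNA and RNA 0 were called by any of edgeR, DESeq2 and limma-voom, and edgeR gave 2 an unadjusted p under 0.05. These were Fto, the RNA N6-methyladenosine demethylase gene, at 139 ± 20.5 CPM with azacitidine and 156 ± 22 CPM without it, and Tet2, which oxidises methylcytosine, at 12.1 ± 4.5 CPM with azacitidine and 15.6 ± 5.6 CPM without it (edgeR adjusted p = 0.19 and 0.23).

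**Figure D4:**
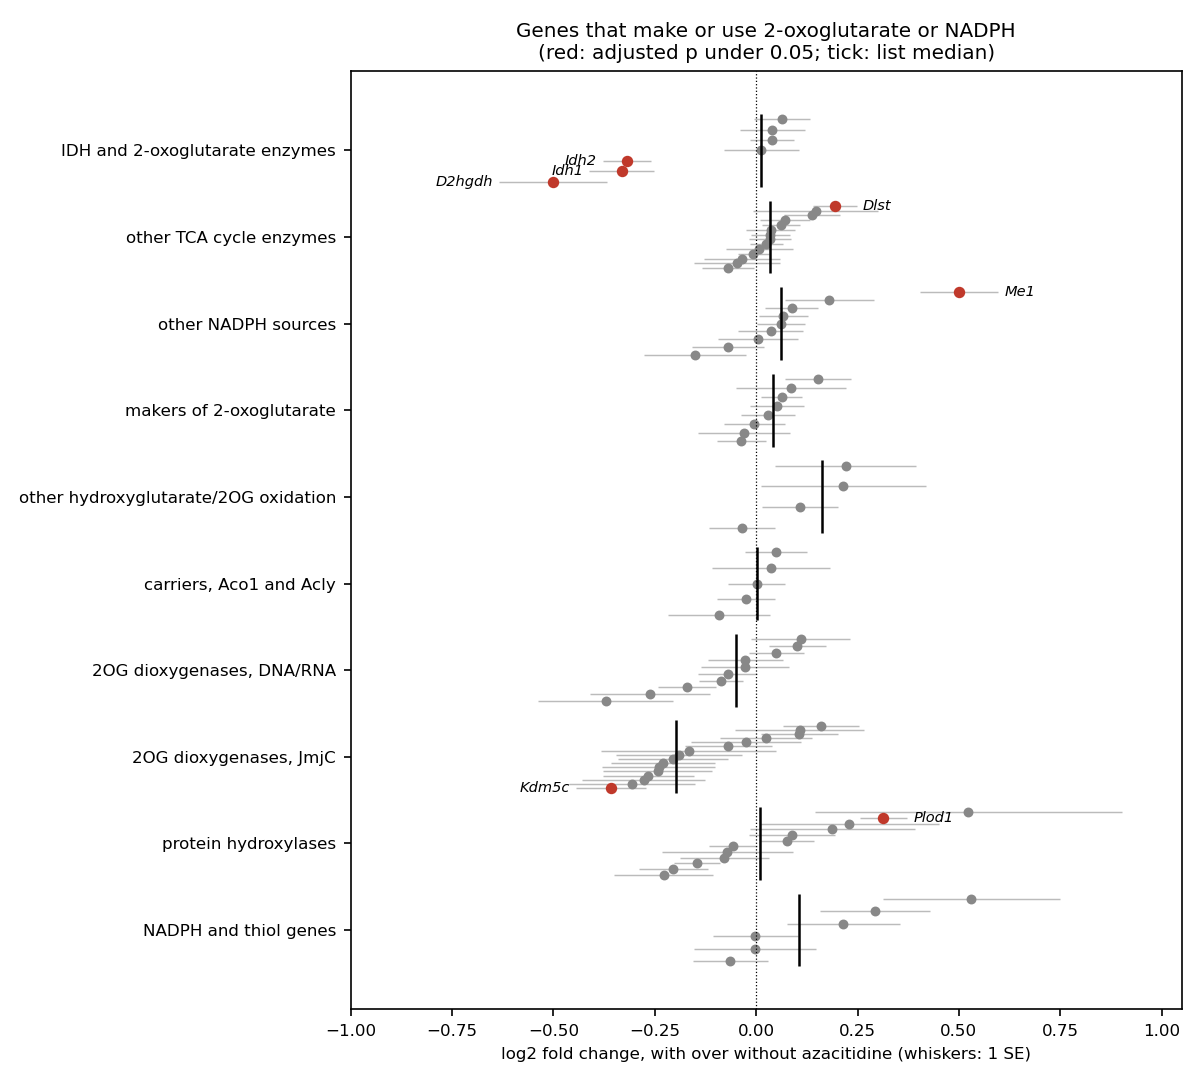
Log2 fold changes (with over without azacitidine, whiskers 1 SE) of the tested genes of each list, sorted by value, with the list's median as a vertical tick. Red points passed the adjusted p threshold in the fit across all genes: Idh1, Idh2, D2hgdh and Kdm5c to the left of 0, Dlst, Me1 and Plod1 to the right.

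The genes whose pattern over libraries was most like that of each member were sought among 6032 genes with a mean of at least 20 CPM, by the correlation of log2 CPM over the 32 libraries after removal of the group means. For Idh1 they were Maged1, Enpp3 and Il1rl1 (Pearson r = 0.85, 0.83 and 0.82, Spearman rho = 0.81, 0.78 and 0.78). For Idh2 they were Coq6, Pura and Nenf (r = 0.88, 0.87 and 0.86, rho = 0.86, 0.87 and 0.85). No gene stood in the lists of both NADP forms. For Idh3g they were Tmed3, Rrp1 and Htra1 (r = 0.93, 0.92 and 0.92, rho = 0.71, 0.70 and 0.74), for Idh3b Mrpl43, Clta and Polr1d (r = 0.82, 0.82 and 0.81, rho = 0.81, 0.81 and 0.76) and for Idh3a Prr13, Cnot2 and Trim35 (r = 0.78, 0.77 and 0.77, rho = 0.53, 0.62 and 0.47). For Ogdh they were Drosha, Xdh and Fto (r = 0.83 for each, rho = 0.81, 0.81 and 0.83). The points share depth and run, the libraries that stand apart weigh most on Idh3g and Idh3a, and the correlations are descriptions without a test. None of these 18 genes was called with azacitidine.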

How the data were processed

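Polyadenylated RNA of 32 libraries was measured. Per the labels' protocols, cDNA was made, barcoded and pooled by a method with UMIs, and 800 pg entered a transposase-based library kit. Tools named in the submitters' processing notes are bedtools 2.17.0 and STAR 2.4.0, with the build mm10; UMI collapsing, annotation and strand use are not given in the sources used here. The deposited values are counts of UMIs per gene without normalization. Of 21897 lines 68 were ERCC spike-ins (0.106% of UMIs), left out of library sizes.

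Groups follow the titles. EdgeR 4.0.16 (quasi-likelihood, robust, two-sided, TMM, default filter) was fitted to 9344 genes with 98.8% of the UMIs, 12485 being removed; all 7 members passed. CPM uses TMM library sizes. Symbols and positions come from GENCODE M21. Same-numbered libraries of the groups were not treated as pairs, since the rule asked for r above 0.1 in all 16. In 12 of 16 pairs the libraries deviated together with r above 0.1, and the range was -0.29 to 0.83. The rule cannot show that same-numbered libraries share nothing. No pair of libraries of a group agreed within sampling noise (lowest chi-square per degree of freedom 1.13 with and 1.15 without azacitidine). Members, lists and tests were chosen with earlier results of these data known. The rule for names took all members, up to 4 called genes a list (otherwise the 2 of smallest p) and the 3 genes most alike each member except D2hgdh; Cs, Dld, Pgd, G6pdx, Gpt, P4ha1, P4ha2, Kdm5b and marker genes were added after their values were seen. The fit was tested on simulated data. Some items are not reported here. Alternatives used DESeq2 1.42.0 and limma 3.58.1, in R 4.3.3, with Python 3.11.15.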

Additional observations from a re-analysis of the deposited data

How the results depend on the processing

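The number of called genes was 528. It was 897 with the replicate block, 993 with a run term, 907 with limma-voom and a correlation within runs, 860 without a filter, 322 without numbers 13 to 16 and 108 with sums of runs. Calls among the pathway lists numbered 4, and 7, 9, 0 and 2 with the replicate block, with the run term, with sums of runs and without numbers 5 to 8. The log2 fold change of Idh1 was -0.33 with sums and a run term, -0.31 with sums, -0.025 with spike-in scaling, -0.29 without numbers 1 to 4 and -0.24 without 5 to 8, each without a call. That of Idh2 lost its call with sums (-0.33) and spike-in scaling (-0.014). D2hgdh lost it with sums and a run term (-0.52), with sums (-0.52), with spike-in scaling (-0.25) and without numbers 5 to 8 (-0.39) or 13 to 16 (-0.47). The sums leave 4 samples a group; for the other settings the cause was not tested. Idh3g changed sign with the replicate block (-0.00997), a run term (-0.0134), sums with and without it (-0.0334 and -0.0120), limma-voom without and with a correlation (-0.00862 and -0.0121), without 5 libraries (-0.0785) and without numbers 1 to 4 (-0.12), and lay between -0.0379 and 0.0559 when single libraries were left out. Without numbers 1 to 4 Idh3b stood at -0.00189, and without 13 to 16 Ogdh at -0.0303. The replicate number was not taken to pair the libraries, and 5 of 16 correlated best with their own number. The replicate block kept the calls of Idh1, Idh2 and D2hgdh and added no other member. The ratio of the NADP forms to the NAD form stayed between -0.44 and -0.28 over 8 alternatives. Sums, library totals, the correlation within runs and the leaving out of single libraries or of numbers 5 to 16 were added after the data were seen. Depth limits D2hgdh most.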

Other observations

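Among libraries of one group the members did not move together. After removal of the group means, Idh1 and Ogdh, which differ in cofactor and compartment, had r = 0.53 over the 32 libraries (Spearman rho = 0.54), and Idh2 and Idh3g r = 0.58 (rho = 0.47). Idh2 and Ogdh went opposite ways (r = -0.62, rho = -0.62), as did Idh3b and Ogdh (r = -0.70, rho = -0.65). Without the 2 libraries farthest from the median of the gene named before the other these were 0.58, 0.63, -0.56 and -0.62. Idh1 and Idh2, both lower with azacitidine, had r = -0.17 over all libraries, 0.12 within those with azacitidine and -0.60 within those without it. The subunits of the NAD form did not move as a unit either. Idh3a had r = -0.66 with Idh3g (rho = -0.30) and -0.47 with Idh3b (rho = -0.44), and Idh3b had r = 0.49 with Idh3g (rho = 0.39). Idh3g was high and Idh3a low in the libraries that stand apart, and by rank these 2 were less opposed. The libraries share depth and run, and no p is given.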
